A study of Mus musculus with 140 samples.

Results

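Gene expression in the gastrocnemius, a mostly fast-twitch muscle of the calf, was compared between mice killed directly after a treadmill run in their rest phase and sham mice killed at the same clock time. The labels' phase, treatment and clock time chose the samples: 4 exercised and 5 sham libraries, 9 in all, or 6.57% of the libraries of the series analysed here. All 11461 genes in the files were kept. The exercised group were male C57B6/J mice of 10 to 11 weeks that ran for 1 h from ZT3, counted in hours from lights on (12 h light, 12 h dark), and their muscle was taken at ZT4 (replicates 1, 2, 5 and 6). The sham group were males of the same strain and age that spent the same hour on a treadmill that did not move, also taken at ZT4 (replicates 1, 2, 4, 5 and 6). A further set of 6 sham mice, from the arm that was handled in the active phase at ZT15, was also taken at ZT4 and served as a reference 12 h after handling. All mice fed freely and were killed under isoflurane, and the labels name no transgene or drug. Replicates share a group label and a number. The labels do not tie them to separate cages or running sessions, so p-values measure a spread between samples. For single genes that spread was estimated within the 24 groups of the whole series, and not from these 9 libraries alone.

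Contraction raises calcium, uses ATP and stretches the fibre, and these signals switch on immediate early genes, which need no new protein to be transcribed. Many of them encode transcription factors of the AP-1 family, in which Fos, Jun, Atf and Maf proteins pair through leucine zippers and bind DNA as dimers. Others encode proteins that end the signal, such as phosphatases of MAP kinases and proteins that destroy short-lived mRNA. Exercise also releases adrenaline and glucocorticoids. Glucocorticoids act through a nuclear receptor that induces, among others, Ddit4, which restrains the growth kinase complex mTORC1, and the clock gene Per1. The early rest phase is the time of day at which nocturnal mice have low glucocorticoid levels.

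The values are reads per M (mega) reads of a library size that the authors scaled, and a value of 1 stood for between 8.25 and 32.3 reads in these 9 libraries. Depth was 13.6 to 25.7 M reads in exercised libraries and 8.14 to 14.7 M in sham libraries. Each library listed at most 1 of the 11461 genes at 0. The 10 skeletal muscle fibre markers were all measured and summed to between 99717 and 120057 in exercised libraries, against 62395 to 88137 in sham libraries. Summed markers of macrophages and leukocytes (12 of 13 measured) lay at 291 to 348 in exercised against 452 to 541 in sham libraries, and erythroid markers (5 of 5) at 485 to 823 in exercised against 970 to 1367 in sham libraries. Fibroblast markers (9 of 9) summed to 1188 to 1678 in exercised against 1564 to 2088 in sham libraries, adipocyte markers (7 of 8) to 366 to 616 in exercised against 493 to 1021 in sham libraries, and smooth muscle and pericyte markers (8 of 8) to 409 to 542 in exercised against 493 to 591 in sham libraries. Endothelial markers (14 of 14) summed to 125.1 to 257 in exercised against 152 to 192 in sham libraries, Schwann cell markers (6 of 8) to 72.2 to 130.97 in exercised against 66.6 to 93.3 in sham libraries, and satellite cell markers (4 of 7) to 68.6 to 79.5 in exercised against 51.5 to 62.4 in sham libraries. Muscle fibre, macrophage, erythroid and satellite cell sums did not overlap between the groups. Among single genes 23.8% did not. The log2 change, exercise minus sham, was above 0 in 9 of 10 muscle fibre and 2 of 4 satellite cell markers. It was above 0 in 0 of 12 macrophage, 0 of 5 erythroid, 0 of 9 fibroblast and 0 of 7 adipocyte markers. For smooth muscle and pericyte markers this held in 5 of 8, for endothelial markers in 11 of 14 and for Schwann cell markers in 4 of 6. The median change was 0.57 for muscle fibre, 0.21 for satellite cell, -0.39 for macrophage and -0.67 for erythroid markers. With a covariate for each library's dependence on transcript length, described below, these medians were 0.32, 0.05, -0.26 and -0.22. No member of the 9 marker lists passed the gene test below, and the part of these markers in the results was not tested.

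Directly after exercise, muscle held more mRNA of a small set of stress, immediate early and hormone-responsive genes. By limma on log2(value + 0.5), with Benjamini-Hochberg adjustment over all genes, 40 of 11461 genes passed at an adjusted p under 0.05 (0.349%), 38 of them higher after exercise (0.332%) and 2 lower (0.0175%). All 40 are annotated as protein-coding. Their changes ran from 0.72 to 2.86 in size on the log2 scale, with a median of 1.33, while the median change of all genes was 0.01. Before adjustment 1717 genes (14.98%) had a p under 0.05. For 38 of the 40 the exercised libraries did not overlap the sham libraries, against 23.8% of all genes. The 40 were chosen on these same libraries, so this separation is no further support. Without exercised replicate 2 the number of passing genes was 16, without exercised replicate 1 it was 22 and without sham replicate 1 it was 24. The count also moved with the model, to 3201 genes with limma array weights and 3653 with only these 9 libraries in the fit. In bulk muscle, a change in RNA per cell and a change in the number of cells of a type cannot be told apart.

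Ddit4 (ENSMUSG00000020108.4, chromosome 10, 59949669 to 59951834 of GRCm38) encodes REDD1, which restrains mTORC1. It stood at 109.5, 118.9, 107.7 and 91.2 in exercised muscle, against 9.21, 14.5, 7.72, 41.1 and 13.2 in sham muscle. The lowest exercised library was thus above the highest sham library, and sham replicate 5 stood highest among the sham mice. The change was 2.86 ± 0.44 (SE; limma adjusted p = 5.3e-06), a 7.27-fold ratio of value + 0.5. Btg2 (ENSMUSG00000020423.6, chromosome 1, 134075170 to 134079120), an antiproliferative gene whose protein recruits the enzymes that remove poly(A) tails, stood at 79.9, 92.0, 65.3 and 34.7 in exercised and at 11.2, 15.6, 10.2, 10.0 and 7.10 in sham muscle. All exercised libraries lay above all sham libraries, with replicate 6 lowest, and the change was 2.55 ± 0.33 (limma adjusted p = 3.6e-08).

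Maff (ENSMUSG00000042622.13, chromosome 15, 79346621 to 79359076) encodes a small Maf protein, a leucine zipper factor that binds DNA but lacks an activation domain. Its values were 14.2, 18.9, 16.4 and 10.6 in exercised muscle, against 1.68, 3.15, 2.01, 2.29 and 3.13 in sham muscle. The groups were far apart, at 2.39 ± 0.31 (limma adjusted p = 3.6e-08). Mt1 (ENSMUSG00000031765.8, chromosome 8, 94179082 to 94180327) encodes metallothionein 1, which binds zinc and copper and is induced by metals and by glucocorticoids. It had 57.4, 51.0, 45.4 and 32.7 in exercised and 8.12, 10.9, 6.21, 9.39 and 6.86 in sham muscle. Sham values of Mt1 spread little, and the change was 2.42 ± 0.37 (limma adjusted p = 3.4e-06).

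Errfi1 (ENSMUSG00000028967.10, chromosome 4, 150853919 to 150868892) encodes MIG6, a feedback inhibitor of the EGF receptor. It stood at 77.9, 78.4, 64.4 and 49.9 in exercised muscle and at 19.9, 36.4, 17.9, 24.4 and 24.7 in sham muscle. No value overlapped, and the change was 1.46 ± 0.23 (limma adjusted p = 5.3e-06). Arrdc3 (ENSMUSG00000074794.10, chromosome 13, 80883384 to 80896042) encodes an alpha-arrestin that directs beta-adrenergic receptors to degradation. It had 135.3, 149.5, 116.8 and 105.2 in exercised and 68.4, 61.6, 37.5, 55.6 and 47.4 in sham muscle. Its change was the smallest of these 6 genes, 1.24 ± 0.17, and was measured with the smallest error (limma adjusted p = 3.7e-07).

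**Figure D1:**
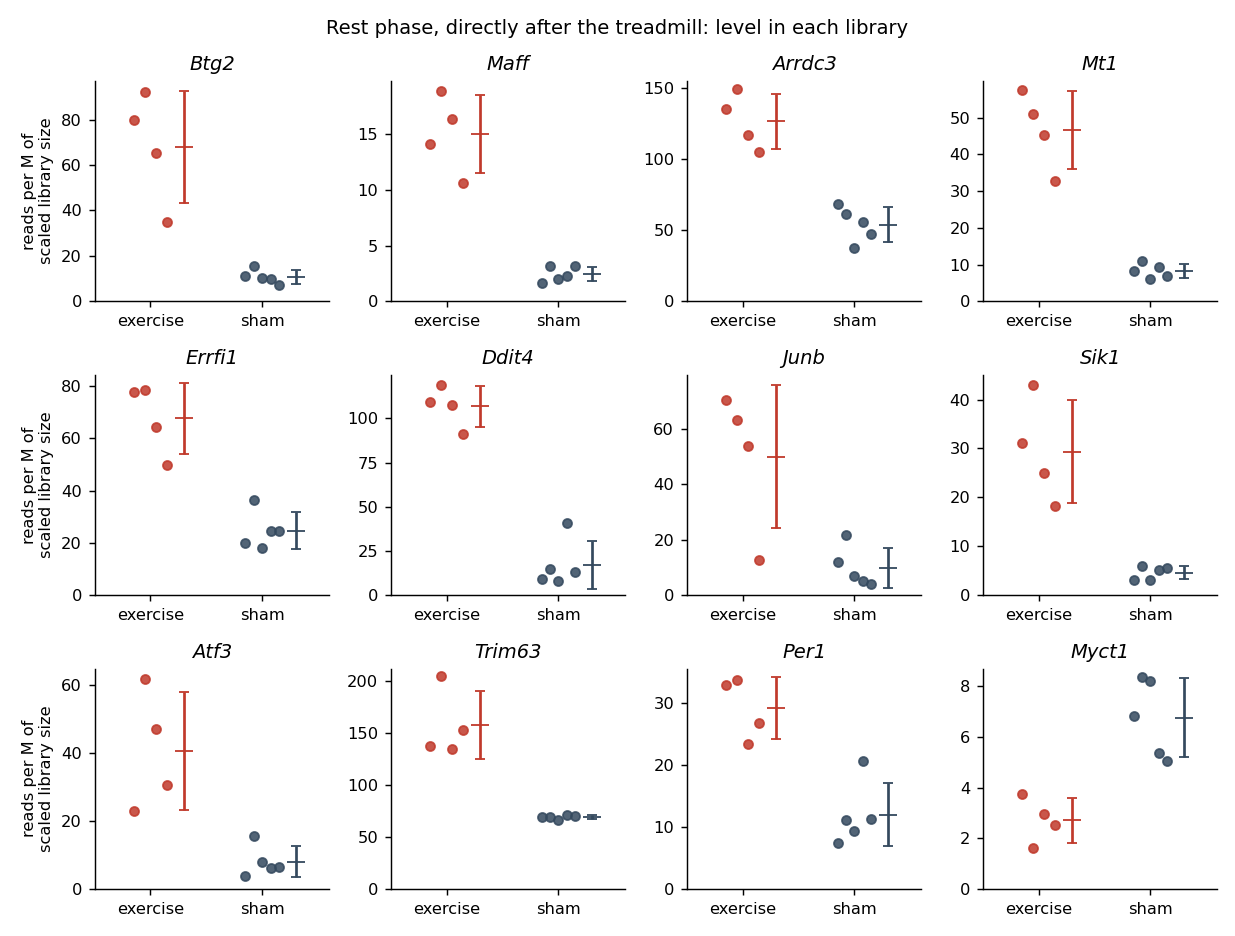
Level of 12 named genes in each library, in reads per M of scaled library size on linear axes that start at 0; points are libraries, bars the mean and SD of 4 exercised (red) and 5 sham (dark blue) libraries. Btg2, Maff, Arrdc3, Mt1, Errfi1 and Ddit4 show no overlap between the groups, while exercised replicate 6 of Junb (12.5) lies among the sham libraries, and Myct1 is lower after exercise.

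The AP-1 list had the highest median change of the lists examined. Of 10 measured AP-1, small Maf and Bach genes 4 rose (background 0.332% of genes), all 10 had a change above 0, and their median was 1.25 against 0.01 over all genes. Besides Maff these were Fosl2, Junb and Atf3. Fosl2, which encodes the Fos-related partner FRA2, had 37.5, 47.6, 38.8 and 22.7 in exercised and 6.93, 11.0, 5.12, 11.2 and 9.62 in sham muscle (change 2.01 ± 0.35). Atf3, a stress-induced member that often represses, had 22.8, 61.8, 47.04 and 30.6 in exercised and 3.66, 15.6, 7.97, 6.24 and 6.50 in sham muscle (2.32 ± 0.50). The exercised values of both genes stood clear of the sham values, though Atf3 varied more within each group. Junb, a Jun protein, had 70.4, 63.04, 53.7 and 12.5 in exercised and 11.8, 21.7, 7.04, 5.02 and 4.09 in sham muscle (2.27 ± 0.44, limma adjusted p = 0.00087). Here the groups overlapped, because exercised replicate 6 lay below sham replicate 2. Fos itself averaged 19.2 ± 7.17 in exercised and 6.34 ± 4.54 in sham muscle (SD), a change of 1.72 ± 0.57 that did not pass (limma adjusted p = 0.29). Jun at 0.77 ± 0.24, Jund at 0.79 ± 0.34 and Mafg at 0.66 ± 0.36 did not pass either (limma adjusted p = 0.23, 0.30 and 0.35).

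Other immediate early genes were split. Of 19 measured 4 rose (background 0.332% of genes), with a median change of 0.37. Along with Btg2 they were Csrnp1, Zfp36 and Nr4a1. Csrnp1, a nuclear protein gene, had 7.42, 7.12, 6.82 and 3.61 in exercised against 1.09, 1.21, 1.34, 2.08 and 0.481 in sham muscle (1.97 ± 0.39). Zfp36 encodes tristetraprolin, which binds AU-rich elements and speeds the decay of the mRNA of other early genes. Its values were 12.99, 12.2, 9.39 and 9.19 in exercised against 2.87, 4.12, 1.68, 2.72 and 2.17 in sham muscle (1.86 ± 0.35). Nr4a1, an orphan nuclear receptor that regulates glucose use in muscle, had 92.4, 105.1, 82.4 and 59.7 in exercised against 16.6, 44.4, 35.98, 32.2 and 31.5 in sham muscle (1.43 ± 0.34). For all 3 the lowest exercised library exceeded the highest sham library. The zinc finger factor Egr1, a classical immediate early gene, had a mean of 2.75 ± 1.68 in exercised and 4.39 ± 4.45 in sham muscle (SD), a change of -0.28 ± 0.55. Ier2 stood at -0.28 ± 0.31, Ier3 at -0.04 ± 0.30 and Ier5 at 0.56 ± 0.23, and none of these 4 passed (limma adjusted p = 0.75, 0.56, 0.94 and 0.30).

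Feedback and kinase genes followed with fewer members. Dusp1, which dephosphorylates MAP kinases, averaged 69.9 ± 12.2 in exercised and 37.1 ± 7.99 in sham muscle (SD; change 0.91 ± 0.23, limma adjusted p = 0.033). It was the member that rose among 10 MAP kinase phosphatase, Sprouty and Spred genes (median 0.19). Dusp6 at -0.14 ± 0.21, Dusp8 at 1.02 ± 0.41 and Dusp10 at 0.28 ± 0.24 did not pass. Sik1, a salt-inducible kinase that is itself induced by cAMP and restrains CREB coactivators, had 31.2, 43.05, 24.9 and 18.2 in exercised and 3.07, 5.94, 3.10, 5.23 and 5.53 in sham muscle. Exercised libraries thus held clearly more Sik1 mRNA (2.53 ± 0.49, limma adjusted p = 0.0011). Among 17 genes of cAMP and CREB signalling it was the member that rose (median 0.43), with Sik2 at 0.28 ± 0.24, Sik3 at 0.64 ± 0.28 and Crem at 0.23 ± 0.32. Of 10 calcineurin and NFAT genes 0 rose (limma; median 0.29), and Rcan1, a calcineurin target, averaged 86.9 ± 27.9 in exercised and 85.4 ± 28.2 in sham muscle (SD).

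In the list of glucocorticoid-induced genes 11 of 27 measured rose (background 0.332% of genes), with a median of 0.98. All 27 changes were above 0, as were those of 5822 of 11461 genes. The 11 were Ddit4, Mt1, Arrdc2, Arrdc3, Per1, Errfi1, Cebpb, Trim63, Rhob, Dusp1 and Nfkbia. Several of these genes respond to other signals as well, and Dusp1, Per1, Mt1, Ddit4, Trim63, Nfkbia and both Arrdc genes stand in a further list used here. Of 5 alpha-arrestin genes 2 rose, Arrdc2 and Arrdc3, while the median was -0.03. Arrdc2 had 51.2, 59.4, 43.6 and 52.7 in exercised and 17.4, 17.2, 12.3, 36.1 and 21.2 in sham muscle (1.37 ± 0.30). Cebpb, a leucine zipper factor of metabolic and inflammatory genes, had 23.9, 28.6, 15.3 and 14.1 in exercised and 8.72, 6.79, 7.30, 8.24 and 8.42 in sham muscle (1.26 ± 0.30). Sham values of Cebpb lay within a narrow band, below every exercised value. Rhob, a small GTPase gene, averaged 90.3 ± 15.2 in exercised and 46.8 ± 7.91 in sham muscle (SD; 0.94 ± 0.23), and Nfkbia, the inhibitor of NF-kB, averaged 23.04 ± 4.31 in exercised and 12.4 ± 1.85 in sham muscle (0.87 ± 0.21). Well known receptor targets that did not pass were Fkbp5 at 1.19 ± 0.34 (28.96 ± 3.51 in exercised and 13.1 ± 5.28 in sham muscle, SD), Tsc22d3 at 0.54 ± 0.19, Sgk1 at 0.54 ± 0.17 and Zbtb16 at 0.57 ± 0.29 (limma adjusted p = 0.12, 0.30, 0.26 and 0.34). For each of these 4 all exercised libraries exceeded all sham libraries, as did 12.7% of all genes.

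Energy and nutrient signalling added few genes. Among 14 restrainers of mTORC1 and energy stress genes 2 rose (background 0.332% of genes), Ddit4 and Depp1, with a median of 0.60. Depp1, a FoxO-induced regulator of autophagy, had 15.1, 17.5, 21.5 and 12.1 in exercised and 2.87, 4.24, 2.43, 5.38 and 3.97 in sham muscle (2.01 ± 0.45). Ddit4l, the paralog of Ddit4, averaged 408 ± 91.5 in exercised and 602 ± 66.1 in sham muscle (SD; -0.59 ± 0.38, limma adjusted p = 0.41), so the paralogs did not share a direction in these libraries, though Ddit4l did not pass. Irs2, an adaptor of the insulin receptor, was the riser among 17 insulin and glucose uptake genes (median 0.47). It had 42.2, 54.3, 24.6 and 18.99 in exercised and 6.24, 7.88, 7.55, 8.24 and 10.6 in sham muscle (1.95 ± 0.47, limma adjusted p = 0.026). Insr at 0.64 ± 0.31 and Irs1 at 0.74 ± 0.35 did not pass. Trim63, which encodes the muscle ubiquitin ligase MuRF1, was the riser among 21 FoxO, atrophy and autophagy genes (median 0.54). It had 137.1, 205, 134.9 and 153 in exercised and 69.4, 69.4, 66.0004, 71.5 and 70.4 in sham muscle, the tightest sham group of the genes shown here in relation to its mean (1.156 ± 0.22, limma adjusted p = 0.00082).

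Clock and growth arrest genes made up a further group. Of 18 core clock and output genes 3 rose (background 0.332% of genes), with a median of 0.53. They were Per1 and Ciart, which repress the activator pair Clock and Bmal1, and Nfil3, a repressor of clock output genes. Per1 had 32.9, 33.6, 23.3 and 26.7 in exercised and 7.43, 11.1, 9.39, 20.6 and 11.2 in sham muscle (1.32 ± 0.29). Ciart was scarce, at 4.42, 5.21, 3.35 and 2.25 in exercised and 0.594, 1.09, 1.17, 1.00 and 1.20 in sham muscle (1.47 ± 0.34). Neither gene overlapped between the groups. Nfil3 averaged 38.2 ± 8.32 in exercised and 17.7 ± 2.02 in sham muscle (SD; 1.08 ± 0.21). Arntl, which encodes Bmal1, stood at 0.52 ± 0.35, Per2 at 0.82 ± 0.31 and Per3 at -0.43 ± 0.30, and these did not pass. Of 16 growth arrest and p53 genes 3 rose, Btg2, Gadd45b and Trp53inp1, though the median of the list was -0.01. Gadd45b, a stress gene of MAP kinase control and DNA demethylation, had 25.9, 15.4, 27.4 and 13.5 in exercised and 7.13, 7.88, 10.3, 7.31 and 6.25 in sham muscle (1.30 ± 0.32). Trp53inp1 averaged 33.5 ± 3.95 in exercised and 20.3 ± 3.41 in sham muscle (SD; 0.72 ± 0.18, limma adjusted p = 0.040). The p53 target Cdkn1a at 1.26 ± 0.36 and Mdm2 at -0.25 ± 0.25 did not pass.

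Further genes outside these lists also passed. Arl4d, a small GTPase gene, averaged 13.02 ± 4.65 in exercised and 3.46 ± 1.31 in sham muscle (SD; 1.77 ± 0.29), Otud1, a deubiquitinase gene, 37.1 ± 15.4 in exercised and 12.2 ± 3.82 in sham muscle (1.53 ± 0.31), Irf2bp2, a transcriptional corepressor gene, 29.9 ± 8.87 in exercised and 10.8 ± 2.74 in sham muscle (1.41 ± 0.35), and Tob2, a relative of Btg2, 59.5 ± 13.6 in exercised and 24.8 ± 6.26 in sham muscle (1.25 ± 0.32). Each of these 4 was higher in every exercised library than in any sham library. Cdr2, Ercc5, Impact, Lnx1, Nfe2l2, Pim3 and Tspyl2 also rose. On the lower side, Myct1, a gene of endothelial cells in mouse, had 3.74, 1.61, 2.98 and 2.52 in exercised and 6.83, 8.36, 8.22, 5.38 and 5.05 in sham muscle, and fell by 1.20 ± 0.24 (limma adjusted p = 0.0019). Summed endothelial markers, given above, overlapped between the groups. Arsi, an arylsulfatase gene named because it was the other of 2 that fell, averaged 1.12 ± 0.298 in exercised and 3.18 ± 0.752 in sham muscle (SD) and fell by 1.18 ± 0.29 (limma adjusted p = 0.026). For both, every exercised library lay below every sham library.

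**Figure D2:**
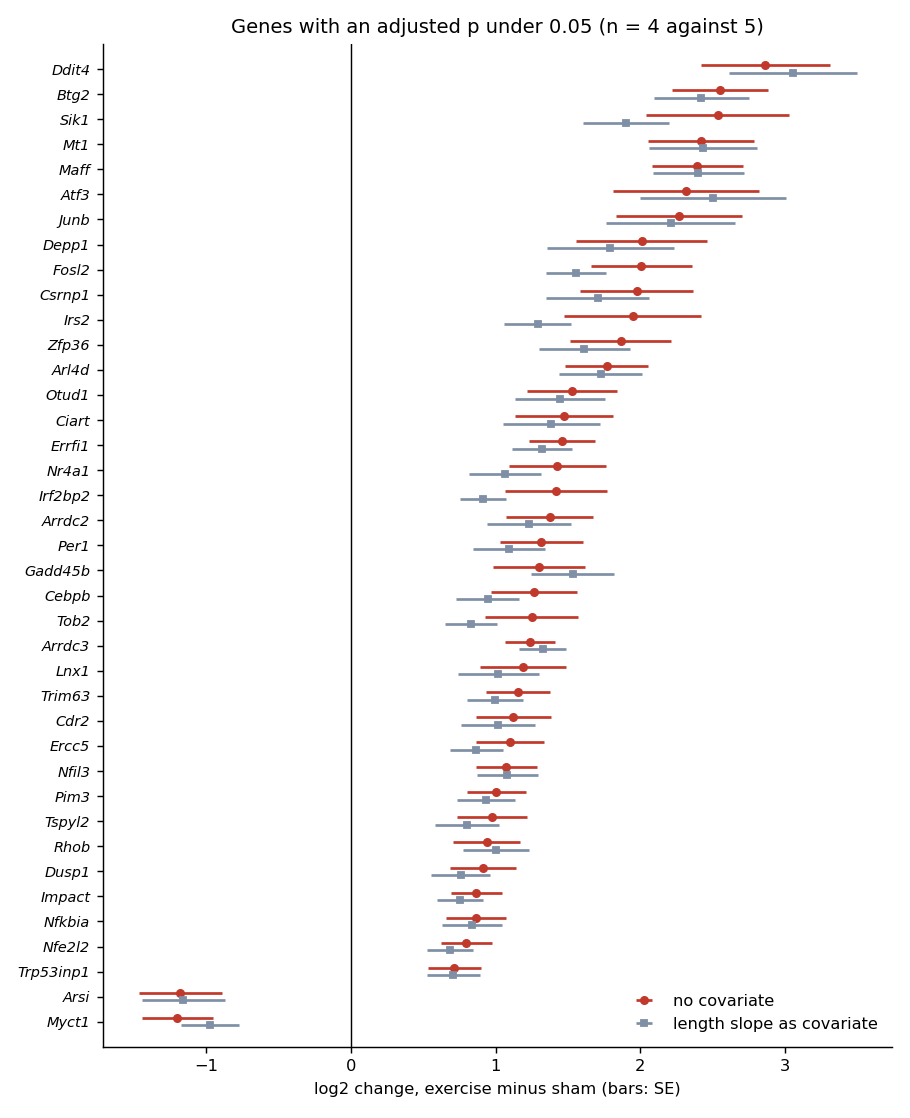
Log2 change, exercise minus sham, with SE, of 39 of the 40 genes with an adjusted p under 0.05, ordered by size; red circles are the fit without a covariate and grey squares the fit that takes each library's length slope as a covariate. Ddit4 leads at 2.86, Arsi and Myct1 are the 2 genes below 0, and no gene shown changes sign between the fits.

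The promoters of the 4 genes with the smallest adjusted p are shown. Of the windows printed, those of Btg2 and Mt1 hold TGACG, the core of the cAMP response element, on either strand. Those of Maff and Arrdc3 do not, though other windows of both genes do. Each line holds the 250 bases before the start of the RefSeq gene in GRCm38.p6, for the window listed at the head of the table, 5′ to 3′ on the strand of the gene. The windows are chr15:79346371-79346620 (plus strand), chr1:134079156-134079405 (minus), chr13:80883134-80883383 (plus) and chr8:94178839-94179088 (plus).
Maff: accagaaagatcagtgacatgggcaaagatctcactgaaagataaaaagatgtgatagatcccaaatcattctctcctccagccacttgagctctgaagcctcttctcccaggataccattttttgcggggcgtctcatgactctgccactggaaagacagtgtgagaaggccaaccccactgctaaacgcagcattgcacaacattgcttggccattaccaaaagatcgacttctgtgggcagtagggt
Btg2: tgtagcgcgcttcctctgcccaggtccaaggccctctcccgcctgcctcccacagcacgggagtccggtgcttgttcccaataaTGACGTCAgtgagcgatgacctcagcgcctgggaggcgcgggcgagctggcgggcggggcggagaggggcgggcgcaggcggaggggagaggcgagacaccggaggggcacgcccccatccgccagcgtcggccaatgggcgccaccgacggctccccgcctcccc
Arrdc3: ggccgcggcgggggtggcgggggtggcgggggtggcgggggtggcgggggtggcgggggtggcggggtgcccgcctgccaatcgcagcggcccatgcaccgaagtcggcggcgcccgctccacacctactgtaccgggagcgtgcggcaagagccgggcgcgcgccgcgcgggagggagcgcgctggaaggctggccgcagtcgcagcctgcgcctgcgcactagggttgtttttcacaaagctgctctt
Mt1: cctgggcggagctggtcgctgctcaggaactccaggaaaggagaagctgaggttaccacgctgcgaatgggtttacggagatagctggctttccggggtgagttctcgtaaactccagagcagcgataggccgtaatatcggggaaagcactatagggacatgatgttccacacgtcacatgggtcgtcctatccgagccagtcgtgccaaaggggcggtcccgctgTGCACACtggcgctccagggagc
Capitals mark TGACG on either strand in Btg2 and the metal response element TGCNCNC on either strand in Mt1. In Btg2 a match on each strand overlaps, at bases 166 to 162 and 163 to 159 before the start, while the Maff and Arrdc3 windows held no TGACG and are in lower case. The metal element of Mt1 lay at bases 23 to 17 before the start, and a TGACG on the opposite strand, left in lower case, at bases 77 to 73. Also left in lower case, the metal element stood at bases 14 to 8 in Maff and 96 to 90 in Btg2. Arrdc3 held it at bases 183 to 177 and 35 to 29. Of the 38 genes that rose 34 had a promoter in the table, some with more than 1 window. TGACG stood in a window of 16 of these 34 (47.1%), against 31.5% of 8817 measured genes with a promoter. Maff and Arrdc3, with 3 windows each, are among the 16 through windows not printed here. The E-box CACGTG, which Clock and Bmal1 bind, stood in 8 of the 34 (23.5%) against 10.3%, Per1 and Ciart among them. The AP-1 letters TGANTCA stood in 2 of 34 (5.88%) against 5.31%, the metal element in 22 (64.7%) against 57.9%, the FoxO element GTAAACA in 3 (8.82%) against 2.60%, and TATAAA in 3 (8.82%) against 8.12%. The CArG box, bound by serum response factor, stood in 1 (2.94%) against 1.53%. These are matches of letters in short windows and not bound sites.

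Lists without a passing gene still differed in their median. By limma 0 members passed among 18 PGC-1 genes (median 0.25), 19 genes of the fasting fuel switch (0.18), 22 of glycolysis and glycogen (0.47), 24 cytosolic heat shock genes (0.36), 19 genes of the integrated stress response and endoplasmic reticulum (0.21) and 17 load-responsive sarcomere genes (0.10). Ppargc1a, the coactivator of mitochondrial biogenesis, averaged 20.6 ± 2.29 in exercised and 13.1 ± 2.78 in sham muscle (SD; 0.65 ± 0.32, limma adjusted p = 0.33). Pdk4, the kinase that shuts off pyruvate oxidation, stood at 0.61 ± 0.41. The heat shock gene Hspa1b had 10.9 ± 1.34 in exercised and 4.61 ± 2.62 in sham muscle (SD; 1.32 ± 0.54, limma adjusted p = 0.30), and its near-identical neighbour Hspa1a, with which it may share reads, stood at 1.26 ± 0.59. Of 20 NF-kB, cytokine and myokine genes 1 rose, Nfkbia (median -0.07), and of 7 metallothionein and zinc genes 1, Mt1 (median 0.46). The 12 measured angiogenic and matricellular genes had a median of 0.45, and how many of them passed is not reported here.

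Fast fibre genes had a median of 0.42 (12 measured, 0 passing by limma) and slow fibre genes -0.62 (10 measured, 0 passing), and with a covariate for each library's dependence on transcript length these were 0.28 and -0.20. In the fast list 7 of 12 changes were above 0, and its summed level overlapped, at 108264 to 157575 in exercised and 117979 to 183414 in sham libraries. Myh4, the fastest myosin heavy chain, averaged 19235 ± 6083 in exercised and 8547 ± 813 in sham muscle (SD). In the other direction were the fast genes Mylpf (-0.38 ± 0.56), Tnni2 (-0.38 ± 0.44), Pvalb (-0.38 ± 0.39), Myl1 (-0.25 ± 0.36) and Tnnc2 (-0.21 ± 0.37). Tnni1, slow troponin I, averaged 49.3 ± 15.7 in exercised and 90.8 ± 24.4 in sham muscle. All 76 cytosolic ribosomal protein genes had a change below 0, with a median of -0.60, and for 38 of them every exercised library lay below every sham library, as in 11.1% of all genes. The 79 nuclear-encoded subunits of oxidative phosphorylation had a median of -0.50, with 42 in which all exercised libraries were below. The 9 mitochondrially encoded transcripts had a median of 0.29. No gene of these lists passed (limma adjusted p of 0.05 or more). The ribosomal and oxidative phosphorylation genes are short, with median exon lengths of 1805.5 and 1718 bases against 4520.5 over all genes.

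**Figure D3:**
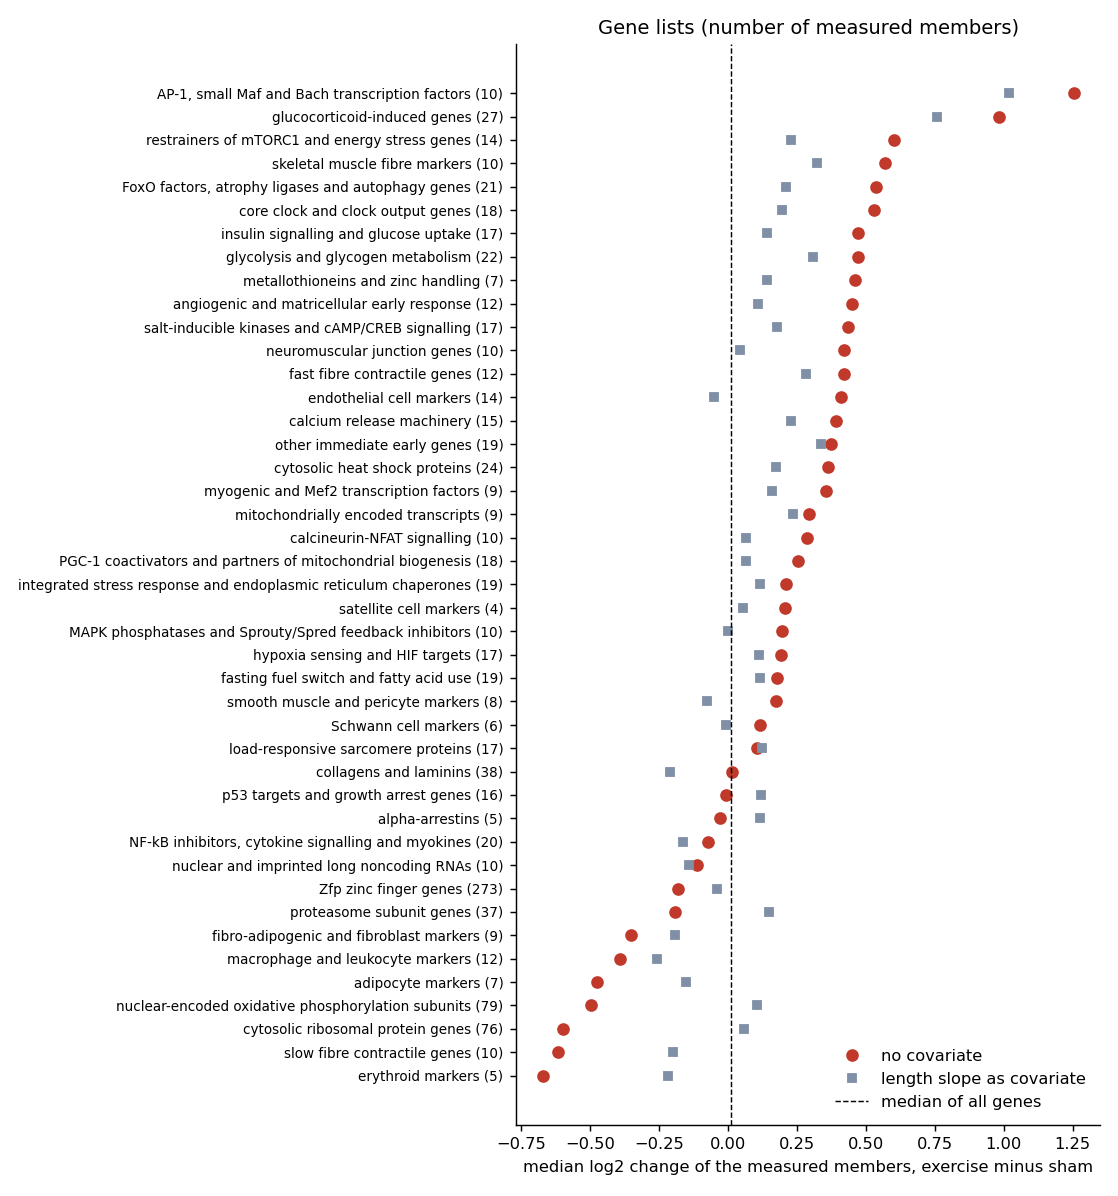
Median log2 change, exercise minus sham, of the measured members of each gene list (number in brackets), without a covariate (red circles) and with each library's length slope in the fit (grey squares); the dashed line is the median of all genes. AP-1 (1.25) and glucocorticoid-induced genes (0.98) lie furthest right in both fits, while the ribosomal and oxidative phosphorylation lists move from -0.60 and -0.50 to 0.06 and 0.10 with the covariate.

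The length of the transcript moved with the comparison. For each library, the log2 deviation of each of 10806 protein-coding genes from its mean over the libraries was regressed on log2 exon length, so that a negative slope means that long transcripts were relatively scarce. The slope was -0.03, 0.03, -0.01 and -0.02 per doubling of length in exercised libraries, against -0.25, -0.20, -0.22, -0.13 and -0.11 in sham libraries. All sham libraries thus lay below all exercised libraries. The means were -0.006 ± 0.029 in exercised and -0.18 ± 0.06 in sham libraries (SD, n = 4 and 5), a difference of 0.18 with p = 0.016 in an exact two-sided permutation test, the smallest this design allows. In the other groups of the series the SD of the slope was larger, from 0.069 to 0.235. The sham mean here was the lowest of the 24 groups. In 5 bins of equal size from short to long genes, the median change was -0.30, -0.04, 0.09, 0.15 and 0.24. Across 10806 genes, which share these 9 libraries, the change correlated with log2 length at a Pearson r of 0.39, given as a description. The labels name no measure of RNA integrity, and its part was not tested.

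Of the 38 genes that rose 14 lay in the shortest bin, which had the most negative median change, 13 in the next, and 3, 7 and 1 in the others. The median exon length of the 40 was 3103.5 bases against 4520.5 over all genes. With the slope of each library as a covariate, 59 genes passed (0.515%), 56 of them higher and 3 lower, and 37 of the 40 were among them. Lnx1, Dusp1 and Tspyl2 no longer passed (limma adjusted p = 0.067, 0.054 and 0.072). Of the 40 changes 32 were smaller in size with the covariate and 8 larger. Irs2 (1.29 ± 0.23), Sik1 (1.90 ± 0.30), Irf2bp2 (0.91 ± 0.16) and Fosl2 (1.56 ± 0.21) had the largest reductions. The 8 that were larger were Ddit4 (3.05 ± 0.44), Gadd45b (1.53 ± 0.28), Atf3, Rhob, Mt1, Nfil3, Maff and Arrdc3 (1.33 ± 0.16). Arrdc3 is among the longer of the 40, with 6266 bases, while Cebpb, with 1504 bases, had a smaller change with the covariate (0.95 ± 0.22) than without it.

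**Figure D4:**
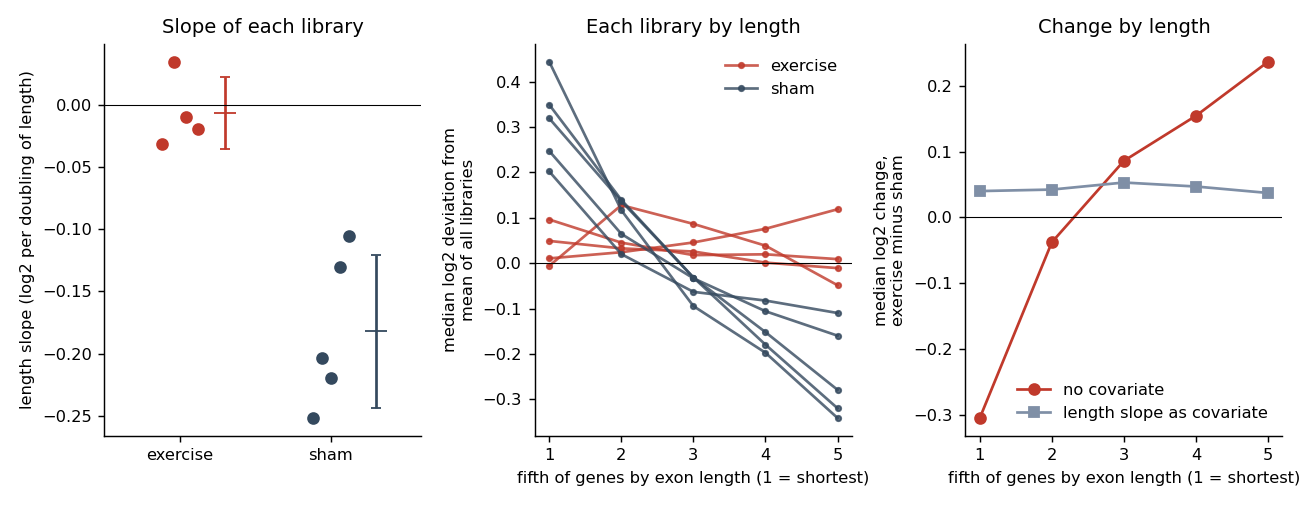
Left, length slope of each library (points) with mean and SD for exercised (red) and sham (dark blue) libraries, in log2 per doubling of exon length; middle, median log2 deviation of each library from the mean of all libraries in 5 bins of protein-coding genes by exon length; right, median change of the bins without (red) and with (grey) the slope as a covariate. Sham libraries slope down and exercised libraries are near flat. The change climbs from -0.30 to 0.24 without the covariate but stays near 0.04 with it. The covariate is the slope on length itself, so the loss of a linear trend is fixed by construction.

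The covariate brought in 22 genes. The 10 largest among them were Gadd45g, a growth arrest gene (1.48 ± 0.37), Cebpd, the partner of Cebpb (1.25 ± 0.30), Hic1, a transcriptional repressor gene (-1.07 ± 0.24), Coq10b, of coenzyme Q function (1.02 ± 0.18), Midn (0.89 ± 0.24), Ppp1r3c, which targets a phosphatase to glycogen (0.85 ± 0.23), Usp2, a clock-controlled deubiquitinase gene (0.81 ± 0.15), Arid5b (0.80 ± 0.20), the fast fibre gene Mybpc2 (0.77 ± 0.19) and Cmya5 (0.74 ± 0.20). Coq10b averaged 65.1 ± 12.4 in exercised and 38.8 ± 4.63 in sham muscle (SD), with all exercised libraries above, and Usp2 averaged 57.6 ± 9.23 in exercised and 22.5 ± 2.92 in sham muscle. Without the covariate these were at 0.73 ± 0.26 and 1.33 ± 0.36 and did not pass (limma adjusted p = 0.30 and 0.077). In the list of glucocorticoid-induced genes 13 rose with the covariate (background 0.489% of genes), Tsc22d3, Klf9 and Cebpd now among them and Dusp1 not. AP-1 (1.02) and glucocorticoid-induced genes (0.76) also had the highest list medians with the covariate, beside a median of 0.04 over all genes. Most other lists had medians nearer 0 there. The median was 0.23 for restrainers of mTORC1, 0.21 for FoxO and atrophy genes, 0.19 for clock genes, 0.18 for cAMP signalling, 0.14 for insulin and for metallothionein genes, 0.11 for angiogenic genes and 0.07 for calcineurin genes. It was 0.06 for PGC-1 genes, 0.11 for the fuel switch, 0.12 for the integrated stress response, 0.17 for heat shock, 0.31 for glycolysis and 0.34 for other immediate early genes. For alpha-arrestins (0.12), growth arrest genes (0.12) and MAP kinase phosphatases (-0.002) it had the opposite sign to that without the covariate.

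The levels of the 38 genes that rose also went together among the exercised mice. Exercised replicate 6 was the lowest of the 4 in 29 of the 38, against 28.6% of all genes, and replicate 2 the highest in 26, against 27.1% of all genes. In sham mice replicates 5 and 2 were highest in 15 and 14 of the 38, against 16.4% and 19.2% of all genes. Ddit4, Arrdc2 and Per1 were all highest, among the sham mice, in replicate 5. Within replicates 1 and 2 alone, and within 5 and 6 alone, the change kept its sign for all 40 genes, which were chosen on these libraries. It was 1.81 and 0.70 for Per1, 2.69 and 1.17 for Irs2, and 1.13 and 1.10 for Arrdc3.

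Some genes also differed between sham mice just off the treadmill and sham mice handled 12 h earlier. Sham mice of the active arm, 12 h after handling and also at ZT4 (n = 6), were set against the same 4 exercised libraries, so both comparisons share them. Here 1.07% of genes passed, 82 higher and 41 lower, and 78 in all without exercised replicate 5. Ddit4 averaged 106.8 ± 11.5 in exercised mice, 17.2 ± 13.7 in sham mice just off the treadmill and 3.46 ± 1.20 in sham mice 12 h after it (SD), and its change against the last was 4.81 ± 0.43. Arrdc2 averaged 51.7 ± 6.49, 20.8 ± 9.07 and 6.42 ± 1.04 in the same order, with a change of 2.92 ± 0.29. Between the groups of sham mice the difference was 1.95 ± 0.40 for Ddit4 and 1.55 ± 0.27 for Arrdc2, just off the treadmill minus 12 h after it (limma adjusted p = 0.0056 and 0.00025). Rhob averaged 90.3 ± 15.2, 46.8 ± 7.91 and 24.5 ± 5.94, with a difference of 0.93 ± 0.21 between the sham groups (limma adjusted p = 0.014). Between the sham groups 0.166% of all genes passed, 12 higher just off the treadmill (0.105%) and 7 lower (0.0611%), and Ddit4, Arrdc2 and Rhob were the 3 among the 40. Btg2 averaged 10.8 ± 3.09 in sham mice just off the treadmill and 9.69 ± 4.38 in those 12 h after it (SD; difference 0.21 ± 0.30, limma adjusted p = 0.61), Fosl2 8.78 ± 2.66 and 9.64 ± 5.11 (-0.06 ± 0.31, limma adjusted p = 0.90). Gadd45b, with 20.6 ± 7.10 in exercised mice and 15.3 ± 4.65 in the sham mice 12 h after handling, did not pass against that reference (0.41 ± 0.30, limma adjusted p = 0.81), nor did Irf2bp2 (0.75 ± 0.34, limma adjusted p = 0.47). The length slope averaged 0.04 ± 0.18 (SD) in the sham mice 12 h after handling.

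Later hours of the same arm gave smaller differences. In it 4, 8, 12, 16 and 20 h after the treadmill, with separate exercised and sham libraries at each hour (5 or 6 a group), the median change of the 38 genes was -0.01, 0.24, -0.07, -0.09 and -0.04, while at 0 h, where they were chosen, it was 1.36. Mt1 and Atf3 passed again at 4 h and 12 h and Mt1 at 8 h, where 0.0175%, 0.0524% and 0.00873% of all genes passed (4, 12 and 8 h), 0.0436% as higher at 12 h. At 16 and 20 h 0 of the 40 passed by limma. Btg2 was at 0.07 ± 0.29 and Ddit4 at 0.03 ± 0.38 at 4 h, and Arrdc3 at -0.16 ± 0.15. Maff stood at 0.93 ± 0.27 at 4 h and 0.67 ± 0.28 at 8 h, and Impact, which inhibits the kinase GCN2, at 0.52 ± 0.15 at 4 h, none passing (limma adjusted p = 0.81, 1.00 and 0.81).

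**Figure D5:**
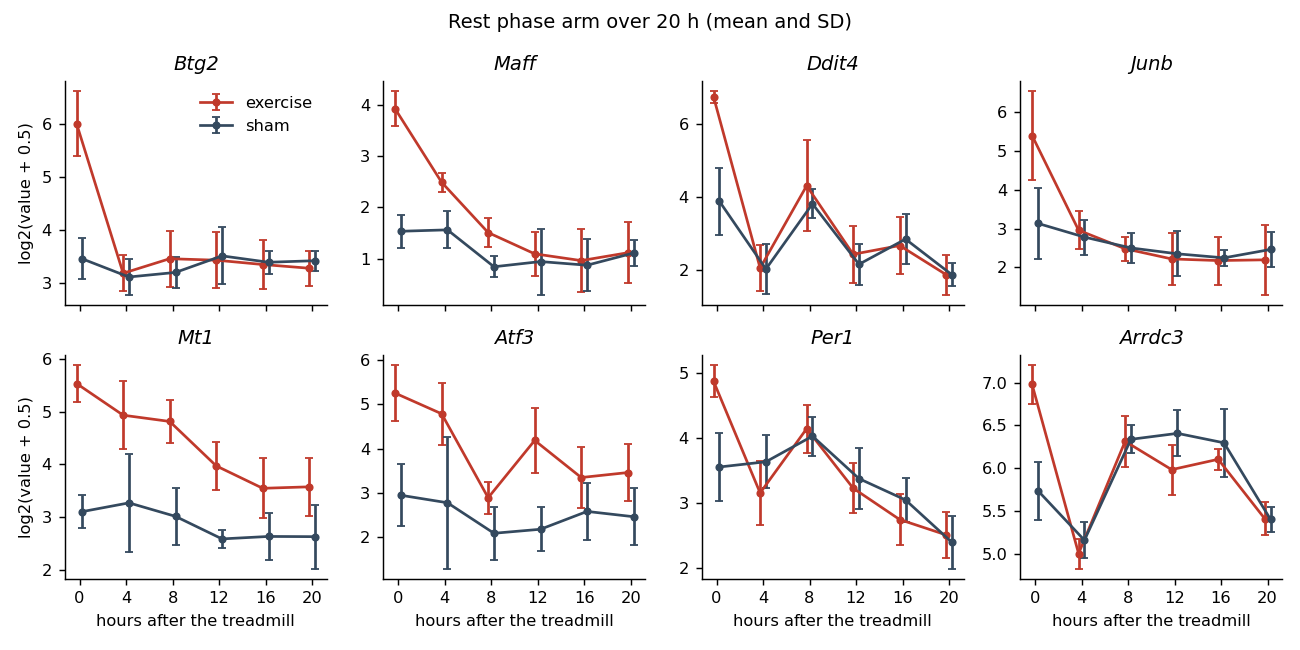
Mean and SD of log2(value + 0.5) for 8 genes every 4 h up to 20 h after the treadmill in the rest phase arm, for exercised (red) and sham (dark blue) mice; 4 and 5 libraries at 0 h and 5 or 6 later. At 4 h Btg2, Ddit4 and Junb lie close to their sham mean, Per1 (3.16 in exercised, 3.64 in sham mice) and Arrdc3 (5.01 in exercised, 5.16 in sham mice) lie below it, and Mt1 and Atf3 above it.

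Mice exercised in the active phase (ZT15, taken at ZT16; 6 exercised and 6 sham libraries, none shared) showed the same sign for all 40 genes, and 27 of them passed as higher, where 0.977% of all genes did. Their length slope was -0.01 ± 0.19 in exercised and -0.16 ± 0.08 in sham mice (SD), and its part in this was not tested. The difference between phases, rest minus active, was tested as an interaction. By limma 0 genes passed, 0.995% of genes had an unadjusted p under 0.05, DESeq2 called 4 and edgeR 0. Among the 40 genes 11 had an unadjusted p under 0.05. The 40 were chosen on the rest-phase libraries that also enter this difference, so that count is not a separate test. Ciart changed less in the rest phase (-1.27 ± 0.44), where it averaged 3.81 ± 1.29 in exercised and 1.01 ± 0.247 in sham mice; active-phase mice had 10.1 ± 4.73 after exercise and 1.01 ± 0.494 after sham (SD). Junb stood at -1.74 ± 0.57, Btg2 at -0.89 ± 0.44, Impact at -0.61 ± 0.23 and Arsi at -1.12 ± 0.38. In the other direction, Depp1 stood at 1.46 ± 0.60, averaging 16.5 ± 3.96 in exercised and 3.78 ± 1.17 in sham mice of the rest phase; active-phase mice had 13.6 ± 5.43 after exercise and 9.33 ± 3.94 after sham. Ddit4 (1.86 ± 0.59), Arrdc2 (1.22 ± 0.39), Otud1 (0.87 ± 0.41), Arrdc3 (0.81 ± 0.23) and Trp53inp1 (0.52 ± 0.24) had the same sign. For Arrdc2 the rest-phase means were 51.7 ± 6.49 in exercised and 20.8 ± 9.07 in sham mice, and the active-phase means 59.8 ± 13.8 in exercised and 53.7 ± 12.3 in sham mice. None of the 11 passed after adjustment over all genes (limma adjusted p = 1.00 for each).

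Exons of 9 of the 40 genes overlap another annotated gene on the opposite strand, and in 4 cases that gene was measured too: Cebpb with Tmem189, Dusp1 with Ergic1, Junb with Prdx2 and Lnx1 with Fip1l1. The libraries were stranded, but the strand setting of the counting is not given in the sources used here, and without it reads of these 9 genes and of their partners cannot be told apart.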

How the data were processed

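Gastrocnemius RNA was freed of ribosomal RNA and went into stranded libraries for paired-end reading (100 bp), per the labels' protocols. Per the submitters' processing notes the tools were STAR 2.5.3a, featureCounts 1.5.2, edgeR 3.2.23, cutadapt 1.16, Trim Galore 0.4.3 and FastQC 0.11.5, on mm10 (GRCm38). The sources used here do not give the annotation release or the filter behind 11461 genes. The deposited files hold 1 signal value per gene, which the authors made as reads per M (mega) reads of a scaled library size. In all libraries every value was a whole number of reads within 0.05 read, with totals of 2.19 to 27.6 M.

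Log2(value + 0.5) was fitted with limma 3.58.1 in R 4.3.3 (trend, robust) over all libraries in 24 groups. The edgeR test planned for raw counts was replaced because the values are scaled, and edgeR 4.0.16 and DESeq2 1.42.0 on recovered reads served as alternatives. Adjusted p under 0.05 counted as passing. Symbols, positions and exon lengths came from GENCODE M21 (11454 of 11461 matched). The procedure was tested on simulated data.

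The samples, the 43 gene lists and the tests were chosen with earlier results of these data known. Values are named for the 24 largest passing changes with a mean log2 value of at least 1, for passing list members, for up to 4 other members of each list in written order, and for the 10 largest changes that pass only with the length covariate. The values of 1 passing gene are not reported here.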

Additional observations from a re-analysis of the deposited data

Results flagged for a closer look

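Among the groups of values of the named genes, 5 held a library that stood apart from the rest by Dixon's test, which marks about 1 in 20 groups by chance, or 5.1 of the groups tested here. Exercised replicate 6 was low for Junb at 12.5 (next lowest 53.7), for Csrnp1 at 3.61 (6.82) and for Rhob at 67.7 (95.8). This is the library that was lowest in 29 of the 38 genes that rose. Exercised replicate 1 was low for Tspyl2 at 5.78, beside values from 6.43 to 6.53 in the others. Sham replicate 1 was low for Ciart at 0.594 (next lowest 1.00). The causes were not tested.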

How the results depend on the processing

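The 40 genes of the rest phase at 0 h kept their sign in every alternative fit. Of 29 present in every alternative, 25 passed in each with all libraries and 12 also in each fit without 1 library. The filter on mean value removed the other 11, of which 7 passed in the alternatives left and 4 also without 1 library. DESeq2 called 46 genes and edgeR 40. Array weights gave 3201 (2165 higher) and a fit of these libraries alone 3653 (1931 higher), so the share of higher genes was far from that of the 40. Length slope plus replicate strata gave 71, and leaving out 1 library 16 to 42. Same-numbered samples did not pair (correlations of 0.13, 0.03, -0.04 and 0.15), and a replicate block gave 38 genes. Against the sham mice 12 h after handling, where 82 genes were higher and 41 lower, array weights gave 884 genes, length slope plus replicate strata 793, the length slope 528, and a floor of 5 on the mean value 81. Leaving out 1 exercised library gave 78 (replicate 5) to 88, and leaving out a rest-phase sham library, which is in neither group, added 0 to 3 genes. Of the 40 genes, 2 passed again at a later hour, and 5 with array weights. DESeq2 called 4 genes for the difference between phases, where limma called 0. The length slope difference was 0.16 to 0.19 without 1 library (exact permutation p from 0.029 to 0.036). Each of these p is the smallest its group sizes allow. The difference was 0.17 over all genes and 0.19 over genes averaging 5 or more. With the length covariate 23 to 70 genes passed without 1 library, a range chosen after seeing the data. The causes of these shifts were not tested. Genes with values near 1 rest on few reads.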

Other observations

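Further gene lists, apart from that of the Zfp genes, held no passing gene by limma. Calcium release genes had a median change of 0.39 (15 measured), with Ryr1, the release channel, at 1865 ± 323 in exercised and 1039.5 ± 87.5 in sham muscle (SD) and Cacna1s, its voltage sensor, at 461 ± 51.0 and 172 ± 43.8. Their changes were 0.83 ± 0.38 and 1.46 ± 0.55 without the length covariate and 0.28 ± 0.14 and 0.68 ± 0.24 with it (limma adjusted p = 0.30 each without it, 0.65 and 0.31 with it). Genes of the neuromuscular junction had a median of 0.42 (10 measured), and 0.04 with the covariate. Myogenic and Mef2 factors stood at 0.36 (9 measured; 0.16 with the covariate), hypoxia genes at 0.19 (17; 0.11), proteasome subunits at -0.19 (37; 0.15), collagens and laminins at 0.01 (38; -0.21) and nuclear and imprinted long noncoding RNAs at -0.11 (10). Of 273 genes named Zfp 1 rose, Zfp36 (median -0.18), whose protein binds RNA through fingers unlike those of most of the list.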
